A study of Mus musculus with 6 samples.

Results

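The genes described here are 42 type I interferon-stimulated genes, a list chosen by symbol, with earlier results of these data known. Of these, 40 had a row among the 31253 genes of the deposited count tables, and Mx1 and Mx2 were not analysed here. Liver tissue of 6 mice, 3 in each group, was dissociated and sequenced as single cells, each mouse as its own library. Knockout mice carried floxed Sting alleles and the Cdh5-Cre transgene (Stingfl/fl Cdh5-Cre+), and control littermates carried the same floxed alleles without Cre (Stingfl/fl Cdh5-Cre-). Cdh5 encodes VE-cadherin, so its promoter drives Cre in endothelial cells, and the gene is also active in part of the blood lineage during development. Mice of both groups were kept on normal chow until 8 weeks of age and then received a western diet with carbon tetrachloride (WD-CCl4) for 12 weeks, a model of metabolic dysfunction-associated steatohepatitis (MASH). Both groups therefore carried the floxed alleles and the same liver injury, and an untreated liver was not analysed here. The design asks what loss of endothelial Sting changes in this liver disease, and the question followed here is which cells hold the interferon-stimulated transcripts and whether their level moves with the genotype or with the mouse.

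Type I interferons are secreted after a cell senses misplaced or foreign nucleic acid. They bind the receptor made of Ifnar1 and Ifnar2 on neighbouring cells, and a complex that holds Stat2 and Irf9 then binds interferon-stimulated response elements in the promoters of the genes described here. Sting is the adaptor that links the DNA sensor Cgas to the kinase Tbk1 and to interferon transcription. Products of interferon-stimulated genes sense viral RNA, tag proteins, block translation of foreign RNA or trap particles at membranes, and a low level of many of them is kept up without infection.

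The promoter sequences of 5 members show an element found before many of these genes. In RefSeq promoter windows of 300 bases, from 250 before to 50 after each annotated start on GRCm38.p6, the core of the interferon-stimulated response element (GAAA, any 2 bases, then GAAA, on either strand) was found in 17 of the 32 members with a window (53.1%), against 3.99% of 27025 genes. The STAT palindrome TTCNNNGAA was found in 7 of the 32 (21.9%), against 9.55% of genes. The stretches below run 5′ to 3′ in the direction of the gene, and the capitals mark the first match of the core, which reads TTTC, 2 bases, TTTC where it lies on the other strand. They are shown because Isg15 and the Ifit genes are the classical members, and because the genotype difference of Rsad2 differed between cell types.
Isg15 (chr4:156200862-156200921, minus strand): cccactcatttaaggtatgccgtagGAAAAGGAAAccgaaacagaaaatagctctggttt
Ifit1 (chr19:34640760-34640819, plus strand): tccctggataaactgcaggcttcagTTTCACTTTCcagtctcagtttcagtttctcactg
Ifit3 (chr19:34583348-34583407, plus strand): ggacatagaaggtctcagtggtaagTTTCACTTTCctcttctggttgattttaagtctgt
Ifit3b (chr19:34607744-34607803, plus strand): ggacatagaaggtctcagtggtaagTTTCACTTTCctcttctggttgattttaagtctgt
Rsad2 (chr12:26456538-26456597, minus strand): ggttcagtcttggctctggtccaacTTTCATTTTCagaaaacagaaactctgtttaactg
The stretches of Ifit3 and its neighbour Ifit3b were identical letter for letter. These are near-identical genes on chromosome 19, so reads could be split between them in counting, and their values are uncertain to that extent. A match describes letters in a window and is not a shown binding site.

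After filtering, 41744 cells were used, and the libraries held 55017937 to 73867890 unique molecular identifiers (UMIs, 1 per captured transcript) with a median of 4696 to 7345 UMIs per barcode. Pairs of libraries shared 0.0974% to 0.328% of their barcodes. Cells were clustered without the interferon genes, so the levels below did not shape the groups. Clusters named from marker genes are called "-like", and a cluster that could not be named is called by its 2 leading genes. Sinusoidal endothelial cells are what the labels give as cell type, whereas the endothelial-like class was 2301 of the 41744 cells and T-like (9099) and B-like (8430) cells were the largest classes. No cluster was named as macrophages, monocytes or Kupffer cells. Counts were summed over the cells of each cell group in each mouse and are given as counts per 1000000 UMIs (CPM). A level could be given in 25 cell groups and a test in the 19 with at least 20 cells in every mouse. The 6 groups with a level only were mature dendritic-like, plasmacytoid dendritic-like and smooth muscle/mural-like cells and the clusters Sntg1 Osr1, Serpina1b Apoa1 and Gm15997 Pde4c, the last of these without control 3. They held 114 to 708 cells, and levels are ranked over all 25 groups, these 6 included. All cell groups come from the same 6 mice and are not independent of one another.

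The highest level of the list was found in endothelial-like cells. Over the 40 members the mean of log2(CPM + 1) was 5.21 ± 0.23 in endothelial-like cells (SD, n = 6 mice), between 4.89 and 5.50 in single mice. The next group, the cluster led by Sntg1 and Osr1, had 4.51 ± 0.23, and endothelial-like cells lay above it in 6 of 6 mice by 0.70 ± 0.27 (SD). Below them the order was flat. The cluster led by Ccl9 and Gria3 had 4.50 ± 0.34, mature dendritic-like cells 4.48 ± 0.43, stellate/fibroblast-like cells 4.30 ± 0.42 and mesothelial-like cells 4.26 ± 0.07. From the Sntg1 Osr1 cluster to stellate/fibroblast-like cells, each group lay above the next in only 2 or 3 of 6 mice, and mesothelial-like cells lay above the next, the Ccl21a Mmrn1 cluster, in 4 of 6. Each of these mean differences was smaller than its SD over the mice. Plasma-like cells had the lowest mean (3.02 ± 0.18). The Elane Camp (3.07 ± 0.43), Cd163l1 Il23r (3.25 ± 0.20) and Dach2 Slc7a8 (3.255 ± 0.35) clusters came next from below, followed by B-like cells (3.26 ± 0.20). B-like cells lay above the Dach2 Slc7a8 cluster in 2 of 6 mice only. A plain sum of the members' CPM gave another order: 5170 ± 792 in mature dendritic-like, 3596 ± 433 in endothelial-like and 3246 ± 264 in plasmacytoid dendritic-like cells. A single member held most of the sum in both dendritic groups, Epsti1 in the former (3176 ± 486 CPM) and Bst2 in the latter (2025 ± 264 CPM).

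**Figure D1:**
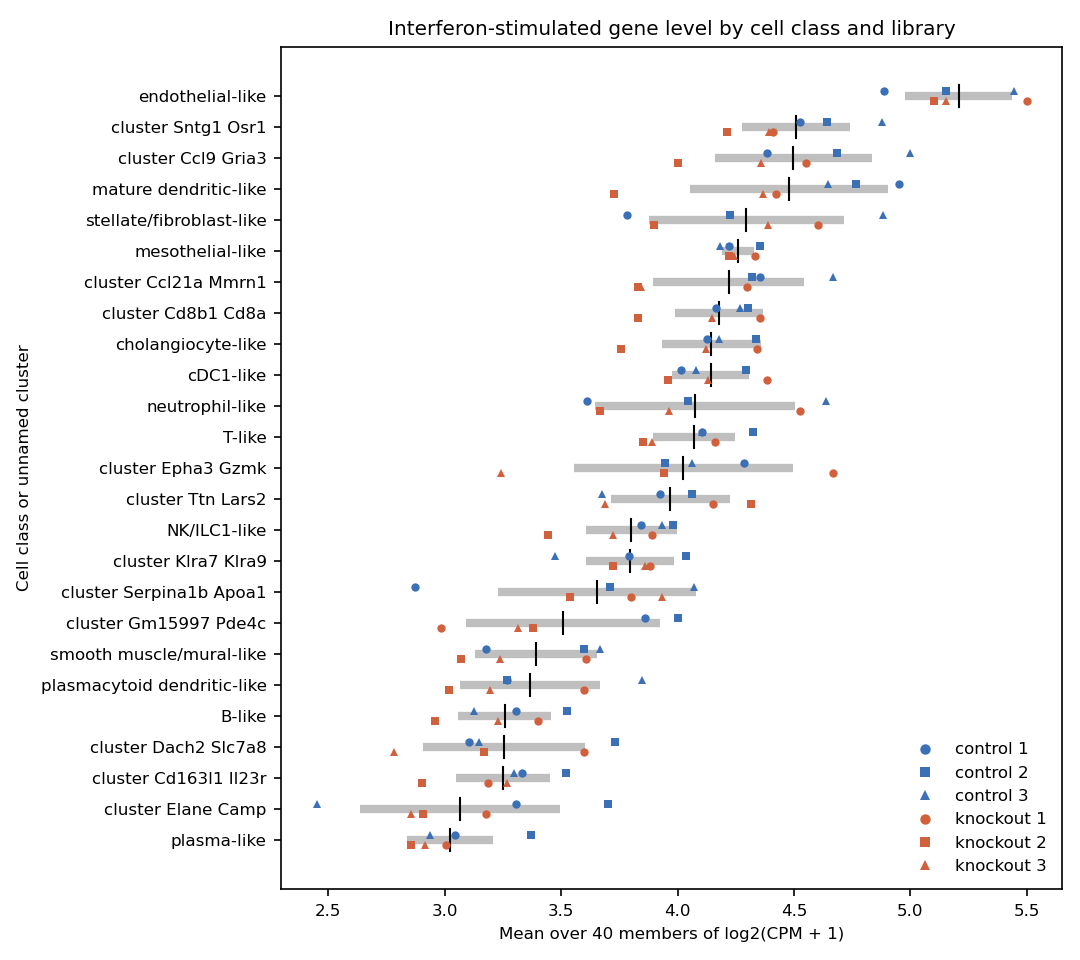
Mean of log2(CPM + 1) over the 40 members (horizontal axis) in each of 25 cell groups (vertical axis). Points are the single libraries, the line is their mean and the grey bar spans ± 1 SD. Endothelial-like cells lie at 5.21 and the next group at 4.51, and most groups from there down overlap their neighbours.

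Set against the mean of the other 18 tested groups, with the mouse as a block, 32 of 39 members with a test were higher in endothelial-like cells and 7 were lower (edgeR quasi-likelihood test, Benjamini-Hochberg adjusted p under 0.05). The same test called 41.6% of 14090 genes higher and 26.7% lower. The median difference was 1.38 on the log2 scale over the members and 0.118 over all genes. Neutrophil-like cells had 25 members higher (27.4% of genes) and 6 lower (32.9% of genes), the Epha3 Gzmk cluster 22 higher (22.3%) and 5 lower (18.3%), and the Cd8b1 Cd8a cluster 20 higher (28.5%) and 5 lower (22.9%). B-like cells had 6 higher (34.3%) and 25 lower (27.9%), and plasma-like cells 7 higher (33.1%) and 24 lower (23.6%).

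**Figure D2:**
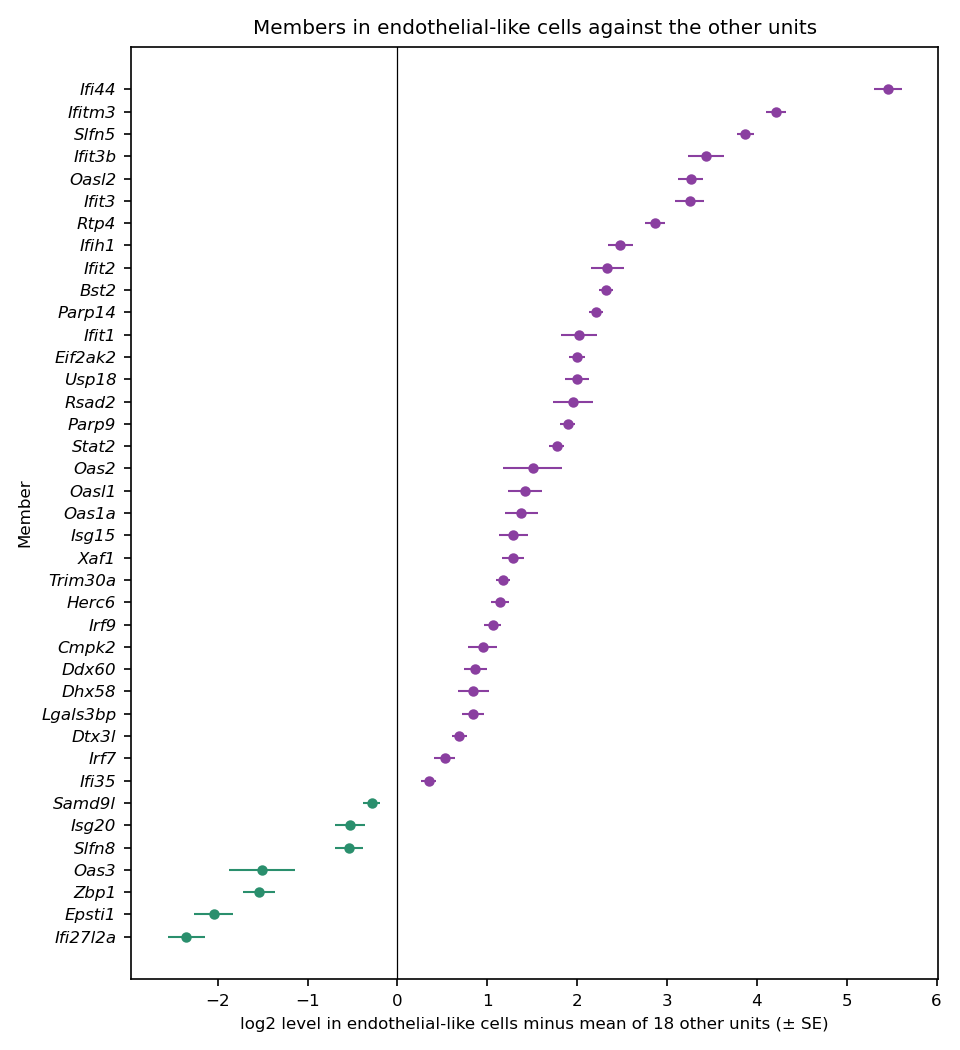
Difference of each of 39 members between endothelial-like cells and the mean of 18 other cell groups on the log2 scale (horizontal axis), with the standard error as a bar. Purple members were higher and green members lower at an adjusted p under 0.05. The values run from 5.46 for Ifi44 to -2.35 for Ifi27l2a.

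Among the sensors, Ifih1, which encodes the RNA sensor MDA5, had its highest mean in mature dendritic-like cells, at 396 ± 275 CPM, with a wide spread between mice. Endothelial-like cells had 215 ± 30.4 CPM and were below mature dendritic-like cells in 3 of 6 mice only. Ifih1 was at 162 ± 93.3 in the Ccl9 Gria3 cluster and at 8.30 in plasma-like cells. Eif2ak2, the RNA-activated kinase PKR that halts translation, was at 72.5 ± 12.4 CPM in endothelial-like cells and was highest there in 6 of 6 mice. Oasl2, a synthetase-like protein, went elsewhere: 162.7 ± 14.2 CPM in the Sntg1 Osr1 cluster and 150 ± 23.1 in mesothelial-like cells, in that order in 3 of 6 mice, against 71.9 ± 12.2 in endothelial-like cells. The synthetases Oas2 and Oas3, which make the activator of RNase L, were highest in neutrophil-like cells (13.2 ± 5.60 and 37.1 ± 25.2 CPM), and Oas3 was lower in endothelial-like cells than in the mean of the other tested groups (log2 difference -1.51, SE 0.37). Oasl1 was at 253 ± 129 CPM in mature dendritic-like cells, above endothelial-like cells (43.1 ± 13.2 CPM) in 6 of 6 mice. The Ccl9 Gria3 cluster (82.8 ± 48.8 CPM) and neutrophil-like cells (71.4 ± 36.8 CPM) came next and were in that order in 3 of 6 mice only.

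Of the transcription factors of the pathway, Stat2 was at 114.9 ± 19.7 CPM in plasmacytoid dendritic-like cells and 103 ± 9.30 in endothelial-like cells, with the former higher in 5 of 6 mice. Irf9, the DNA-binding partner of Stat2, had 66.5 ± 5.83 CPM in endothelial-like cells and 85.8 ± 47.3 in the Ttn Lars2 cluster, whose cells were shallow (median 908.5 UMIs). Irf7, which amplifies interferon transcription, was at 60.1 ± 35.4 CPM in that shallow cluster, 54.8 ± 27.7 in plasmacytoid dendritic-like cells and 51.8 ± 6.23 in cDC1-like dendritic cells. Isg15, a ubiquitin-like modifier, was at 135 ± 58.3 CPM in mature dendritic-like cells, 81.3 ± 13.2 in endothelial-like cells and 81.2 ± 25.4 in neutrophil-like cells. The first was above the second in 5 of 6 mice, and the last pair was in that order in 3 of 6 and could not be ranked. Its protease Usp18 had 45.1 ± 21.1 CPM in mature dendritic-like cells and 28.0 ± 8.34 in endothelial-like cells, and the ligase Herc6 had 71.1 ± 25.8 and 55.6 ± 5.35 CPM, with mature dendritic-like cells above in 5 and 4 of 6 mice.

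The Ifit genes, whose products bind foreign RNA, were high in the same pair of cell groups. Ifit1 was at 40.9 ± 15.8 CPM in endothelial-like and 43.6 ± 34.3 in mature dendritic-like cells, and Ifit2 at 44.5 ± 29.0 and 73.0 ± 40.1, with mature dendritic-like cells above in 3 and 4 of 6 mice, so these could not be ranked. Ifit3 was highest in endothelial-like cells at 44.7 ± 14.2 CPM, above every other group in 5 of 6 mice. The membrane protein Bst2 (tetherin, which holds budding particles) was at 2025 CPM in plasmacytoid dendritic-like cells, 375 ± 35.4 CPM in the cluster led by the lymphatic endothelial genes Ccl21a and Mmrn1 and 351 ± 43.8 in endothelial-like cells. It was highest in plasmacytoid dendritic-like cells in 6 of 6 mice. Bst2 is a known marker of these cells and, as a member, was used neither to cluster nor to name them. Ifitm3, which blocks fusion of viral membranes, was at 1344 ± 321 CPM in the Ccl21a Mmrn1 cluster, 1177 ± 222 in the Sntg1 Osr1 cluster and 1174 ± 114.7 in endothelial-like cells, and the first was above the last in 5 of 6 mice.

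Several further members separated endothelial-like cells from every other group in all 6 mice. Slfn5, a Schlafen protein, was at 258 ± 29.0 CPM against 176 ± 22.4 in the Ccl21a Mmrn1 cluster. Parp14, an ADP-ribosyltransferase, was at 176 ± 39.3 CPM, Ifi44 at 64.7 ± 12.0 and Rtp4 at 67.9 ± 20.6. Ifi44 had no UMI in any Ttn Lars2 sum and in some sums of neutrophil-like cells, so its fitted difference of 5.46 from the other groups depends on the prior count and is not a bound. Parp9 (116 ± 15.7 CPM) led in 5 of 6 mice, and its partner Dtx3l was highest in the Epha3 Gzmk cluster (53.2 ± 7.46 CPM).

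Other members marked other cells. Epsti1, at 3176 CPM in mature dendritic-like cells and highest there in 6 of 6 mice, was at 452 ± 53.6 CPM in the Cd8b1 Cd8a cluster and 411 ± 47.6 in NK/ILC1-like cells. It was lower in endothelial-like cells than in the mean of the other tested groups (log2 difference -2.04, SE 0.22). Rsad2, the radical enzyme viperin, was at 125 ± 68.7 CPM in neutrophil-like cells, 124 ± 81.9 in mature dendritic-like cells, 116 ± 73.5 in the Ccl9 Gria3 cluster and 31.3 ± 13.2 in endothelial-like cells. Ifi27l2a, a mitochondrial membrane protein, was at a mean of 305.6 CPM in plasma-like cells (from 177.2 to 479.2 in single mice) and 303.9 ± 162.6 in stellate/fibroblast-like cells and was also lower in endothelial-like cells (-2.35, SE 0.21). The exonuclease gene Isg20 was highest in plasma-like cells in 6 of 6 mice (70.4 ± 20.5 CPM) and Samd9l in the Epha3 Gzmk cluster on average (129.8 ± 24.98 CPM). Trim30a was at 169.9 ± 32.4 CPM in plasmacytoid dendritic-like and 148 ± 7.21 in cDC1-like cells. Counted over the 25 groups, 9 of the 40 members had their highest mean in endothelial-like cells and 19 were first or second there. Mature dendritic-like cells led for 8 (Ifih1, Oasl1, Isg15, Usp18, Herc6, Ifit1, Ifit2 and Epsti1), neutrophil-like cells for 4 (Oas2, Oas3, Rsad2 and Cmpk2) and the Epha3 Gzmk cluster for 4 (Zbp1, Samd9l, Dtx3l and Ifi35). Among the 19 groups with a test alone, endothelial-like cells led for 16 and were first or second for 25.

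The level of a group can come from many cells or from a few. Each cell was thinned to 2000 UMIs, and a cell was counted as positive with at least 3 UMIs of the 12 core members, those with little transcript in cells not exposed to interferon. The positive share was 13.6% ± 7.06 in mature dendritic-like, 10.2% ± 5.56 in neutrophil-like, 9.89% ± 4.59 in endothelial-like and 9.07% ± 4.82 in Ccl9 Gria3 cells (SD, n = 6). It was 0.390% ± 0.233 in mesothelial-like cells and lowest, at 0.249% ± 0.609, in the Serpina1b Apoa1 cluster. Without thinning, the shares were 48.2%, 19.1%, 47.1% and 25.6%, and 32.0% in mesothelial-like cells, which had a median of 19176.5 UMIs against 8936 in endothelial-like and 4022 in neutrophil-like cells. Thinning left out 116 control and 61 knockout endothelial-like cells. The 10% of cells with the most core UMIs held 81.1% of the core UMIs of the Ccl9 Gria3 cluster and 44.9% of those of endothelial-like cells. In mature dendritic-like cells the positive share was 19% ± 3.63 in controls and 8.08% ± 4.62 in knockouts, from 18%, 23.1% and 16.1% against 13.3%, 4.65% and 6.25%, which do not overlap, on 50, 52 and 81 thinned control cells and 30, 43 and 16 thinned knockout cells. In neutrophil-like cells it was 14.2% ± 5.29 in controls and 6.24% ± 1.24 in knockouts, in endothelial-like cells 7.87% ± 5.16 and 11.9% ± 3.73, and in the Ccl9 Gria3 cluster 12.0% ± 5.18 and 6.16% ± 2.41 (SD, n = 3). No test was made on these shares.

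Transcripts of the interferons themselves were rare. Ifnb1, which encodes interferon beta, had 350 UMIs in 98 cells of the whole data set, and Ifna1, Ifna5 and Ifne had none, so only the limit of 3 UMIs can be put on them. Of the Ifnb1 UMIs, 162 (46.3%) were in the Ccl9 Gria3 cluster, 81 (23.1%) in cDC1-like cells and 52 (14.9%) in mature dendritic-like cells. A further 30 came from 1 neutrophil-like cell of knockout 2, and endothelial-like cells held 3. In the Ccl9 Gria3 cluster the control mice had 13, 44 and 72 Ifnb1 UMIs in 2, 5 and 13 cells, and the knockout mice 4, 14 and 15 in 3, 5 and 3 cells. Scaled to the normalised library size (TMM), their levels were 8.74, 27.7 and 53.2 CPM against 1.69, 8.36 and 9.25, which overlap, with a log2 difference of -2.27 (SE 0.76) and an edgeR adjusted p of 1. In cDC1-like cells the control mice had 18, 2 and 19 Ifnb1 UMIs and the knockout mice 31, 2 and 9, which overlap. In mature dendritic-like cells the control mice had 18, 14 and 16 Ifnb1 UMIs in 63, 61 and 88 cells, and knockouts 1 and 3 had 1 and 3 in 33 and 17 cells, with none in the 45 cells of knockout 2. As plain CPM the mature dendritic-like values were 26.9, 26.4 and 13.3 in controls and 2.47 and 15 in knockouts 1 and 3, so the groups overlap. Ifng, the type II interferon, was at 20.2, 13.9 and 25.3 CPM in endothelial-like sums of controls and 11.9, 12.2 and 13.5 in knockouts (-0.67, SE 0.24, edgeR adjusted p = 0.843). T-cell markers in the same sums, given below, also had lower fitted values in knockouts, and their part in the Ifng values was not tested.

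The targeted gene was looked at first in the comparison of genotypes. Sting1 was at 30.3, 24.2 and 28.4 CPM in endothelial-like cells of the 3 control mice and at 21.9, 12.2 and 22.7 CPM in the 3 knockout mice, TMM-scaled as are the values per mouse in each genotype test. All knockout values were below all control values, with a log2 difference of -0.51 (SE 0.23, edgeR adjusted p = 0.843). The labels do not say which exons the floxed allele removes. A 3′ tag can lie outside them, so this level does not check the deletion. In other cells Sting1 differed by -0.83 (SE 0.23) in NK/ILC1-like, -0.79 (SE 0.22) in B-like, 0.60 (SE 0.25) in cDC1-like and 0.51 (SE 0.23) in Cd8b1 Cd8a cells, which all missed the threshold (edgeR adjusted p = 0.539, 0.563, 0.681 and 0.758).

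In endothelial-like cells, which are among the cells that Cdh5-Cre targets, the list as a whole did not move with the genotype beyond the spread of the mice. Its mean level was 5.16 ± 0.28 in controls and 5.25 ± 0.22 in knockouts (SD, n = 3), a difference of 0.09 whose sign turned when control 1 (-0.05) or knockout 1 (-0.03) was left out. Of 37 members that passed the count filter, none had an edgeR adjusted p under 0.05 (0% of 11728 genes), and DESeq2 called none. At an unadjusted p under 0.05 there were 5 members, 2 higher and 3 lower, against 5.51% of all genes. By sign, 21 were higher and 16 lower (50.8% of genes higher), the median was 0.07 against 0.01 for all genes, and 6 members had groups that did not overlap (12.2% of genes). The Ccl21a Mmrn1 cluster, led by lymphatic endothelial genes, was not part of this class. There the level of the list differed by -0.46 without overlap, though the lowest control (4.318) and the highest knockout (4.3) lay close. By sign, 1 member was higher and 19 lower (51.9% of genes higher).

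The members with the smallest p in endothelial-like cells went in both directions. Ifi27l2a was at 30.9, 23.6 and 23.5 CPM in controls and 15.5, 10.7 and 10.4 CPM in knockouts (-1.07, SE 0.21). Slfn8, of the Schlafen family, was at 14.2, 10.6 and 9.47 CPM in controls and 7.86, 5.71 and 5.79 in knockouts (-0.78, SE 0.26). In both, every knockout mouse was below every control mouse. Rsad2 was at 11.9, 21.3 and 31.6 CPM in controls and 37.6, 46.8 and 38.4 in knockouts (0.83, SE 0.28), and Ifit3b at 10.1, 14.2 and 12.8 against 21.9, 16.4 and 15.1 (0.50, SE 0.22). In these the knockout mice were all above the controls. Epsti1 differed by -0.73 (SE 0.30), with overlapping groups. Ifih1 was at 213, 223 and 281 CPM in controls and 185, 187 and 208 in knockouts (-0.31, SE 0.14), Ddx60 differed by 0.25 (SE 0.14), Ifit3 by 0.39 (SE 0.26) and Oasl1 by -0.37 (SE 0.27). The edgeR adjusted p was 0.843 for the first 7 of these, 0.852 for Ifit3 and 0.861 for Oasl1.

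Other transcripts of the same cells lay to one side, with no gene past the threshold. Of 24 dissociation and heat shock genes, 23 had a lower fitted value in knockout endothelial-like cells, with a median of -0.39 and summed levels of 62800 to 74800 CPM in controls against 44500 to 62000 in knockouts. All 10 endothelial markers had a higher fitted value (6560 to 7100 CPM in sum against 7600 to 9090), and all 8 T-cell markers a lower one (85.8 to 185 against 67.2 to 101). The Kupffer cell markers Cd5l, Vsig4, Clec4f and Marco were at 0 in these sums. Of the same dissociation and heat shock genes, the fitted value was lower in knockouts for 20 of 24 in T-like, 20 of 24 in NK/ILC1-like, 22 of 24 in cDC1-like, 22 of 23 in neutrophil-like and 17 of 24 in Ccl9 Gria3 cells. The part of these differences in the member values was not tested.

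**Figure D3:**
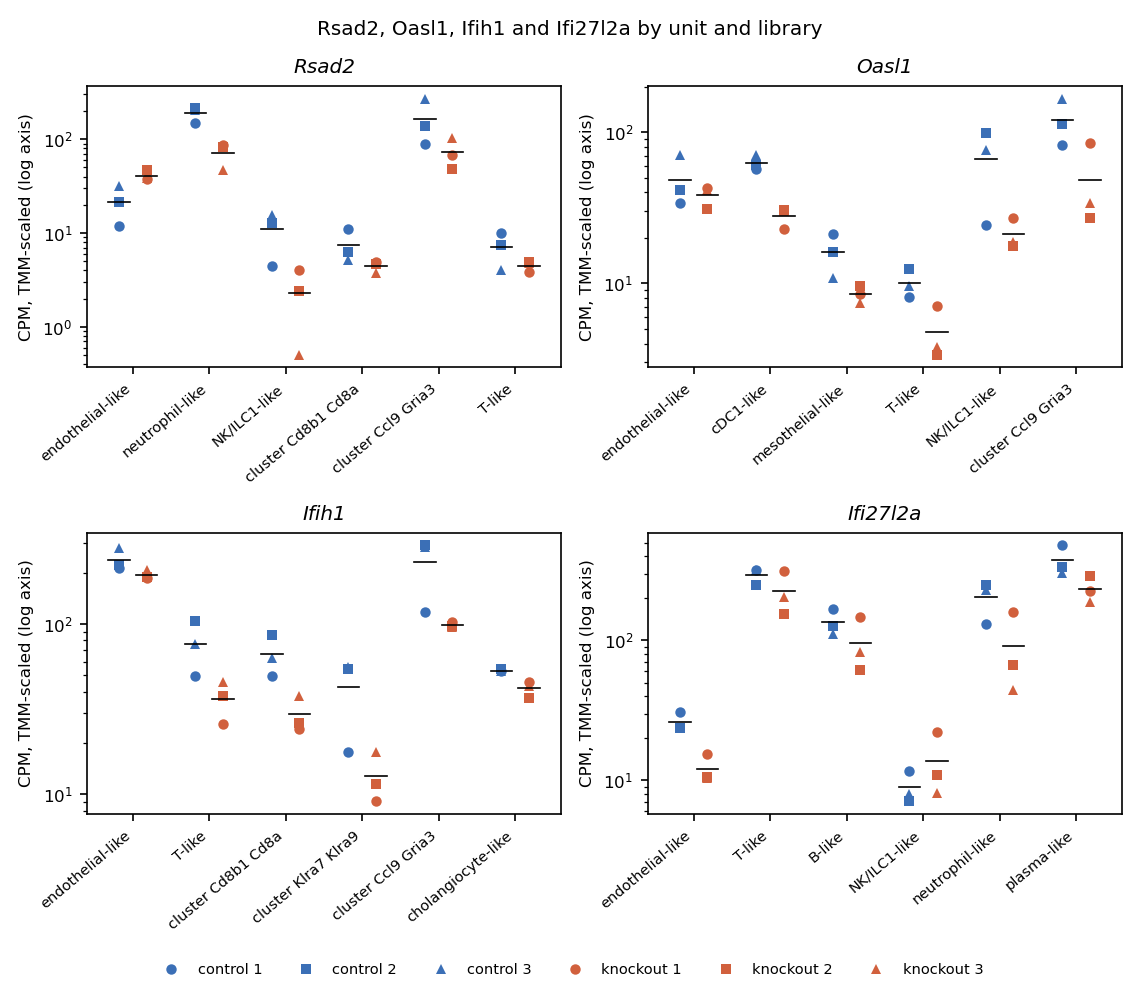
Level of Rsad2, Oasl1, Ifih1 and Ifi27l2a in each library (vertical axis, normalised CPM, log scale) in 6 cell groups each (horizontal axis), with control and knockout mice in separate colours. Rsad2 of knockout mice lies above the controls in endothelial-like cells (37.6 to 46.8 against 11.9 to 31.6) and below them in neutrophil-like cells (47.5 to 87.2 against 148 to 215).

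In the other 18 tested groups no member passed the edgeR threshold either, where 0% of all genes did, except for 0.0104% in NK/ILC1-like, 0.025% in Klra7 Klra9, 0.0413% in Cd163l1 Il23r, 0.153% in Epha3 Gzmk, 0.0239% in neutrophil-like and 0.105% in Ccl21a Mmrn1 cells. In neutrophil-like cells Rsad2 was at 148, 215 and 207 CPM in controls and 87.2, 81.8 and 47.5 in knockouts. The groups did not overlap, and the log2 difference was -1.33 (SE 0.27, edgeR adjusted p = 0.0765), which passed with DESeq2 (adjusted p = 0.0151) and when control 1 was left out (-1.45, edgeR adjusted p = 0.0102). Of 18 members tested there, 4 had an unadjusted p under 0.05 (9.79% of genes). B-cell markers in these sums ranged from 149 to 522 CPM in controls and from 83.9 to 137 in knockouts, and their part was not tested. Ifi27l2a (-1.03, SE 0.41) and Oasl1 (-0.88, SE 0.39) overlapped between the groups.

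In cDC1-like cells, which are cross-presenting dendritic cells, Oasl1 was at 57.1, 60.8 and 70.4 CPM in controls and 23.1, 30.7 and 30.3 in knockouts. All knockout mice lay below all controls, with a log2 difference of -1.18 (SE 0.19, edgeR adjusted p = 0.0824), and DESeq2 called it (adjusted p = 0.00361). It was 1 of 3 members of 30 with an unadjusted p under 0.05 (7.08% of genes). Slfn5 (0.42, SE 0.16) and Ifi27l2a (-0.90, SE 0.36) were the others.

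The Ccl9 Gria3 cluster, which also held the largest share of the Ifnb1 UMIs, had 7 of 32 members with an unadjusted p under 0.05, all lower in knockouts, against 4.19% of genes. Ifit2 was at 20.8, 39.0 and 55.4 CPM in controls and 10.6, 6.57 and 10.5 in knockouts (-2.03, SE 0.36, edgeR adjusted p = 0.545). Ifih1 was at 118, 289 and 284 CPM in controls and 103, 96.8 and 96.2 in knockouts (-1.22, SE 0.30), and the groups of neither gene overlapped. Ifit1 differed by -1.95 (SE 0.59) and overlapped, because control 1 at 18.1 CPM lay below knockout 1 at 19.1. DESeq2 called these 3 members (adjusted p = 0.00585, 0.0464 and 0.0464), whereas the edgeR adjusted p of the last 2 was 1. Without control 1, Ifih1 was called by edgeR (-1.53, adjusted p = 0.0195). Over the 32 members, 27 were lower (49.5% of genes higher) and the median was -0.28 against -0.002 for all genes.

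T-like cells had 7 of 37 members with an unadjusted p under 0.05, all lower (5.58% of genes), and 29 members lower by sign (50.2% of genes higher). Ifih1 was at 49.4, 104 and 76.0 CPM in controls and 25.8, 38.0 and 45.5 in knockouts (-1.07, SE 0.27, edgeR adjusted p = 0.858), without overlap, and DESeq2 called it (adjusted p = 0.0389). Ifit1 differed by -1.12 (SE 0.28) and Oasl1 by -1.09 (SE 0.30), also without overlap. Different clusters were the largest of the T-like class in the groups, the Cd40lg Cd4 cluster in controls (33.2% of cells) and the Frmd5 Foxp3 cluster in knockouts (27.4%), so these values are those of a mixture. In the single Cd8b1 Cd8a cluster Ifih1 was at 49.3, 86.6 and 63.3 CPM against 24.2, 26.3 and 37.9 (-1.15, SE 0.23, edgeR adjusted p = 0.393), again called by DESeq2 (adjusted p = 0.0108). There 7 of 37 members had an unadjusted p under 0.05 (6.55% of genes). The next after Ifih1 were Ifit1 (-0.78, SE 0.29) and Rsad2 (-0.86, SE 0.34).

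In NK/ILC1-like cells 5 of 34 members had an unadjusted p under 0.05 (6.48% of genes). Rsad2 was at 4.45, 12.9 and 15.5 CPM in controls and 4.01, 2.41 and 0.506 in knockouts (-2.03, SE 0.58, edgeR adjusted p = 0.539), and Ifit1 at 6.92, 17.1 and 23.5 against 6.19, 3.22 and 6.07 (-1.51, SE 0.45). Control 1 lay close to the knockouts in both. The knockout sums held 2855864, 2365193 and 1964377 UMIs, so their Rsad2 values rest on few UMIs. Oasl1 (-1.61, SE 0.54) overlapped, and was called when control 1 was left out (-2.05, edgeR adjusted p = 0.00169). In the Klra7 Klra9 cluster, where 5 of 26 members had an unadjusted p under 0.05 (6.64% of genes), Ifih1 was at 17.7, 54.3 and 56.2 CPM against 9.09, 11.5 and 17.6 (-1.78, SE 0.40, edgeR adjusted p = 0.301; without control 1 -2.19, adjusted p = 0.00838). Ifit2 was at 3.72, 5.07 and 4.01 CPM in controls there and at 12.8, 9.93 and 8.81 in knockouts (1.29, SE 0.45, edgeR adjusted p = 0.62).

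Mesothelial-like cells, in which many genes differed (16.9% at an unadjusted p under 0.05), had 8 of 37 members below that p, 5 higher and 3 lower. Oasl1 was at 21.2, 16.2 and 10.9 CPM in controls and 8.56, 9.68 and 7.47 in knockouts (-0.93, SE 0.23), Lgals3bp differed by 0.32 (SE 0.10) and Ifitm3 by 0.39 (SE 0.13), with edgeR adjusted p of 0.136, 0.176 and 0.193. DESeq2 called Ifitm3 (adjusted p = 0.0439). In the Ccl21a Mmrn1 cluster, with lymphatic endothelial genes in the lead and 29 cells in each of 2 knockout libraries, Isg15 was at 133, 83.3 and 89.3 CPM in controls and 55.7, 34.2 and 63.7 in knockouts (-0.98, SE 0.27, edgeR adjusted p = 0.169). It was 1 of 3 of 20 members with an unadjusted p under 0.05 (10.1% of genes), beside Ifi27l2a (-0.48, SE 0.19) and Trim30a (-0.62, SE 0.28).

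In the remaining groups the counts of members with an unadjusted p under 0.05 were 3 of 38 in cholangiocyte-like cells (8.76% of genes), 2 of 37 in B-like (6.16%), 3 of 23 in plasma-like (5.81%), 1 of 16 in Epha3 Gzmk (5.37%) and 1 of 12 in Dach2 Slc7a8 cells (5.27%). In stellate/fibroblast-like cells and the Cd163l1 Il23r, Ttn Lars2 and Elane Camp clusters there were 0 of 27 (3.15%), 0 of 17 (6.76%), 0 of 4 (5.29%) and 0 of 8 (1.11%), and neither edgeR nor DESeq2 called a member there. In cholangiocyte-like cells Ifih1 differed by -0.35 (SE 0.11), Slfn5 by -1.04 (SE 0.37) and Trim30a by -0.53 (SE 0.22). In plasma-like cells Ifi27l2a differed by -0.68 (SE 0.20), Eif2ak2 by 0.87 (SE 0.27) and Zbp1 by 0.61 (SE 0.25). B-like cells had Oasl1 at -0.38 (SE 0.16), Ifit1 at -1.02 (SE 0.45) and Ifih1 at -1.14 (SE 0.52), and none of these passed the test. The Epha3 Gzmk cluster had Stat2 at -0.78 (SE 0.36), Ifih1 at -0.60 (SE 0.32) and Ifi35 at 0.44 (SE 0.28). The Dach2 Slc7a8 cluster had Herc6 at -1.40 (SE 0.48), Ifih1 at -0.87 (SE 0.78) and Epsti1 at -0.33 (SE 0.33). In the Cd163l1 Il23r cluster Parp14 differed by -0.50 (SE 0.25), Trim30a by -0.36 (SE 0.22) and Dtx3l by -0.48 (SE 0.30). Stellate/fibroblast-like cells had Ifih1 at -0.52 (SE 0.35), Herc6 at -0.49 (SE 0.34) and Ifit2 at -0.50 (SE 0.39). In the Elane Camp cluster Herc6 differed by -0.63 (SE 0.41), Eif2ak2 by -0.37 (SE 0.37) and Bst2 by -0.39 (SE 0.42), and in the Ttn Lars2 cluster Ifi27l2a by 0.26 (SE 0.34), Epsti1 by 0.21 (SE 0.31) and Parp14 by 0.20 (SE 0.43).

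By sign alone, members were 8 higher and 29 lower in T-like cells (50.2% of genes higher), 10 higher and 27 lower in B-like cells (48.2% of genes higher) and 15 higher and 22 lower in Cd8b1 Cd8a cells (51.9% of genes higher). They were 18 higher and 19 lower in mesothelial-like cells (50.3% of genes higher), 16 higher and 18 lower in NK/ILC1-like cells (50.6% of genes higher) and 12 higher and 26 lower in cholangiocyte-like cells (49.1% of genes higher). There were 14 higher and 12 lower in Klra7 Klra9 cells (50.1% of genes higher), 4 higher and 13 lower in Cd163l1 Il23r cells (50.6% of genes higher) and 5 higher and 11 lower in Epha3 Gzmk cells (49% of genes higher). The counts were 18 higher and 12 lower in cDC1-like cells (50.5% of genes higher), 5 higher and 13 lower in neutrophil-like cells (49.8% of genes higher) and 9 higher and 14 lower in plasma-like cells (50.7% of genes higher). Members were 5 higher and 27 lower in Ccl9 Gria3 cells (49.5% of genes higher), 12 higher and 15 lower in stellate/fibroblast-like cells (50.4% of genes higher) and 3 higher and 1 lower in Ttn Lars2 cells (51.2% of genes higher). The last groups had 3 higher and 9 lower in Dach2 Slc7a8 cells (49.6% of genes higher), 2 higher and 6 lower in Elane Camp cells (48.9% of genes higher) and 1 higher and 19 lower in Ccl21a Mmrn1 cells (51.9% of genes higher). The widest splits were those of the Ccl21a Mmrn1, Ccl9 Gria3 and T-like groups, each toward lower values in knockouts.

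**Figure D4:**
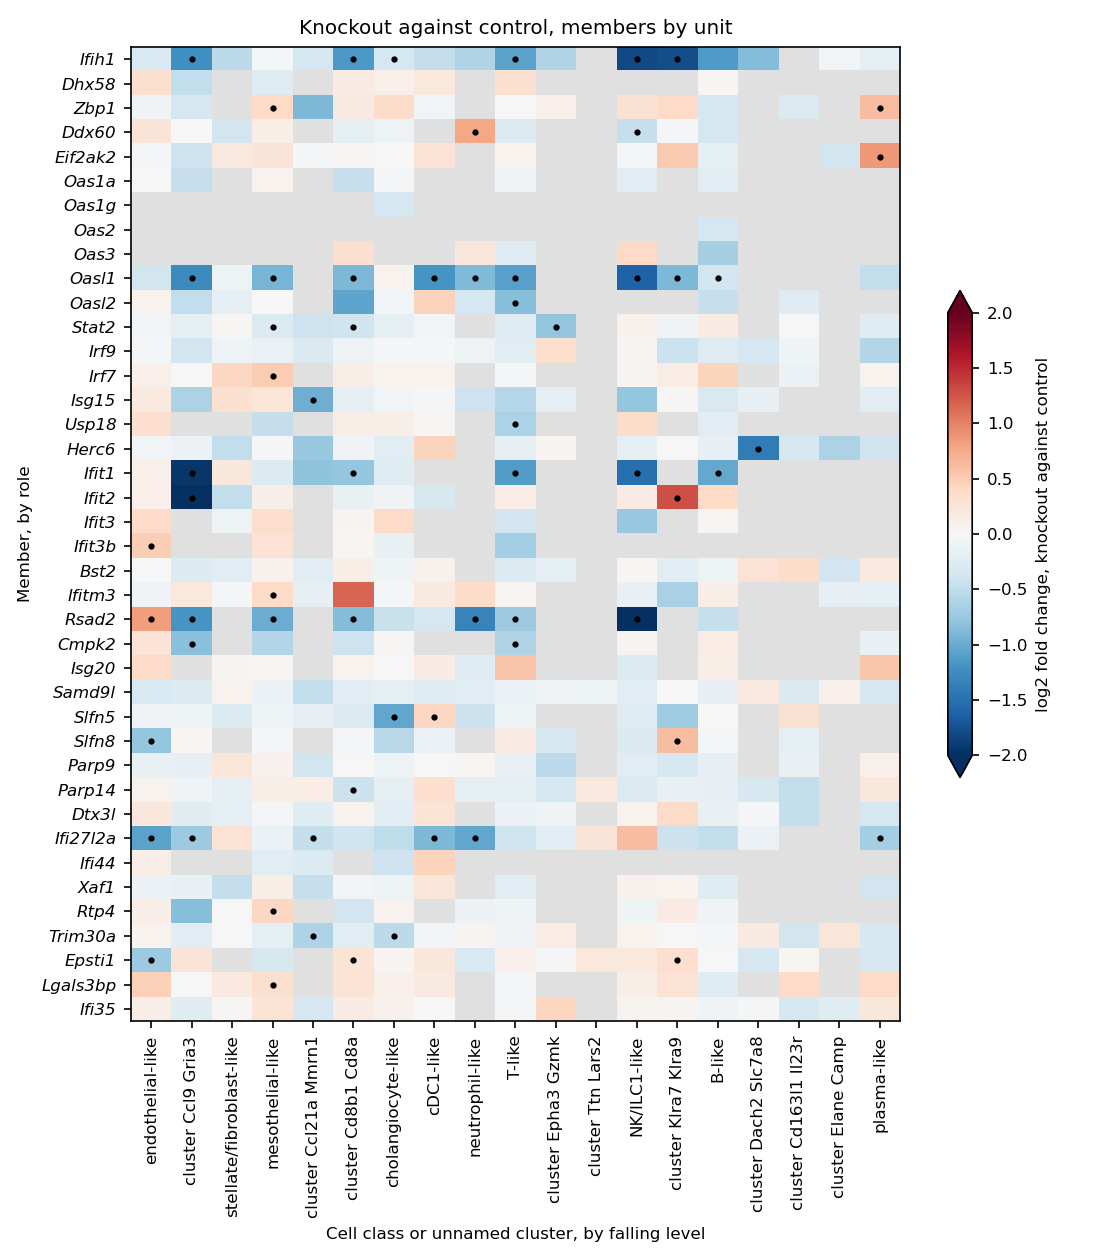
Fitted log2 difference of knockout from control for the 40 members (one axis) in 19 cell groups (other axis), as a colour scale ending at 2 in either direction. Dots mark an unadjusted p under 0.05 and grey marks a member that did not pass the count filter. Ifih1 and Oasl1 have their dots on the lower side, and Rsad2 is higher in endothelial-like cells (0.83) and lower in neutrophil-like cells (-1.33).

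The ranges of 4 members across the cell groups are given first, and they were not the widest. Ifih1 was between -1.80 in NK/ILC1-like and -0.04 in mesothelial-like cells over the 17 groups with a test, with a median of -0.60. Oasl1 was between -1.61 in NK/ILC1-like and 0.07 in cholangiocyte-like cells over 13 groups, with a median of -0.90. Ifi27l2a ran from -1.07 in endothelial-like to 0.62 in NK/ILC1-like cells over 17 groups (median -0.43). Slfn8, by contrast, ran from -0.78 in endothelial-like cells to 0.61 in the Klra7 Klra9 cluster over 12 groups with a median of -0.08. Wider ranges were those of Rsad2, from -2.03 in NK/ILC1-like to 0.83 in endothelial-like cells over 10 groups (median -0.80), and of 2 Ifit genes. Ifit1 ran from -1.95 in Ccl9 Gria3 to 0.23 in stellate/fibroblast-like cells over 10 groups (median -0.79). Ifit2 ran from -2.03 in Ccl9 Gria3 to 1.29 in Klra7 Klra9 cells over 11 groups (median 0.11). The mice are the same in all of these, so the groups are no separate evidence.

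The log2 differences of Oasl1, Ifi27l2a and Slfn8, which an earlier description of these data named, can be given for every group with a test. For Oasl1 they were -1.61 in NK/ILC1-like, -1.28 in Ccl9 Gria3, -1.18 in cDC1-like, -1.09 in T-like, -0.93 in mesothelial-like, -0.90 in Klra7 Klra9, -0.90 in Cd8b1 Cd8a, -0.88 in neutrophil-like, -0.50 in plasma-like, -0.38 in B-like, -0.37 in endothelial-like, -0.10 in stellate/fibroblast-like and 0.07 in cholangiocyte-like cells. For Ifi27l2a they were -1.07 in endothelial-like, -1.03 in neutrophil-like, -0.90 in cDC1-like, -0.73 in Ccl9 Gria3, -0.68 in plasma-like, -0.50 in cholangiocyte-like, -0.49 in B-like, -0.48 in Ccl21a Mmrn1, -0.43 in Klra7 Klra9, -0.40 in Cd8b1 Cd8a, -0.40 in T-like, -0.22 in Epha3 Gzmk, -0.14 in mesothelial-like, -0.12 in Dach2 Slc7a8, 0.26 in Ttn Lars2, 0.29 in stellate/fibroblast-like and 0.62 in NK/ILC1-like cells. For Slfn8 they were -0.78 in endothelial-like, -0.56 in cholangiocyte-like, -0.33 in Epha3 Gzmk, -0.30 in NK/ILC1-like, -0.19 in Cd163l1 Il23r, -0.11 in cDC1-like, -0.04 in Cd8b1 Cd8a, -0.04 in B-like, -0.03 in mesothelial-like, 0.04 in Ccl9 Gria3, 0.17 in T-like and 0.61 in Klra7 Klra9 cells. On GRCm38, Oasl1 lies on chromosome 5, 114923240 to 114937915, plus strand, Ifi27l2a on chromosome 12, 103442167 to 103443680, minus strand, Slfn8 on chromosome 11, 83002158 to 83020810, minus strand, Ifih1 on chromosome 2, 62595798 to 62646255, minus strand and Rsad2 on chromosome 12, 26442746 to 26456452, minus strand.

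Whether the genotype acted differently in endothelial-like cells was tested as a difference of differences, with the mouse as a block. Against T-like, B-like and cDC1-like cells no member passed (edgeR adjusted p, 0% of genes in each). At an unadjusted p under 0.05 there were 15 of 40 members against T-like cells (4.74% of genes), 5 of 39 against B-like (4.7%) and 5 of 37 against cDC1-like cells (4.18%). DESeq2 was not run on this contrast. The other 15 groups were compared after the data had been seen, and Rsad2 passed in 2 of them. Its difference was 2.16 higher in endothelial-like than in neutrophil-like cells on the log2 scale (SE 0.36, edgeR adjusted p = 0.00018, 0.183% of genes called). Leaving out each mouse in turn gave 1.98 to 2.47 with adjusted p from 4.32e-05 to 0.00231. Against NK/ILC1-like cells the difference was 3.05 (SE 0.44, adjusted p = 0.0259, 0.00831% of genes called), and the call was lost without control 2 (adjusted p = 0.562), control 3 (0.0788), knockout 2 (0.232) or knockout 3 (0.0652).

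Within the endothelial-like class, Rsad2 was uneven. In the Sema3g Ly6c1 cluster, which carries the arterial gene Sema3g, Rsad2 was at 47.8, 54.1 and 58.5 CPM in controls and 160, 195 and 190 in knockouts, from 8, 31 and 15 UMIs against 39, 65 and 131. The groups were well apart there, on 17, 101 and 24 control cells and 27, 32 and 54 knockout cells. In the Rspo3 Selp cluster, the largest, Rsad2 was at 6.83, 9.70 and 15.8 CPM against 16.7, 4.34 and 12.2, which overlap. The Adam23 Stab2 cluster, with the sinusoidal gene Stab2, had 110, 34.3 and 74.1 CPM against 106, 267 and 161, the first of these from 5 cells. In the Mecom Npr3 cluster Rsad2 was at 0, 20.3 and 30.8 CPM in controls and 21.3, 26.9 and 15.9 in knockouts, which overlap, and the control at 0 had 15 cells. The share of the class held by these clusters differed between mice. The Sema3g Ly6c1 cluster was 10.8%, 20.2% and 4.62% of endothelial-like cells in controls and 6.34%, 15.4% and 11.0% in knockouts, and the Adam23 Stab2 cluster 3.16%, 2.20% and 20.6% against 21.6%, 8.65% and 4.50%. Ifi27l2a in the Sema3g Ly6c1 cluster was at 95.6, 48.9 and 133 CPM in controls and 12.3, 29.9 and 23.3 in knockouts. In the Adam23 Stab2 cluster the level of the list was 5.22 and 6.085 in controls 2 and 3. In knockouts it was 6.08, 5.59 and 5.34 there, and control 1 had too few cells. In the Rspo3 Selp cluster it was 4.78, 4.905 and 5.02 in controls and 5.12, 4.61 and 4.82 in knockouts. Single mice ran from 4.93 to 5.72 in the Mecom Npr3 and from 4.11 to 5.26 in the Sema3g Ly6c1 cluster. No test was made within these clusters, and the part of their shares in the class level was not tested.

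The level of the list differed between mice of the same genotype. In all 19 tested groups the level of knockout 1 was above the mean of its own group of 3 mice, by 0.24 ± 0.16 on the log2 scale (SD over cell groups), and it was the highest knockout mouse in 17. Knockout 2 was above its group mean in 1 of 19 (-0.16 ± 0.16) and the lowest knockout mouse in 15. With the log2 of the summed CPM, knockout 1 was above its group mean in 16 groups and knockout 2 in 3. After thinning the sums to the smallest library of each cell group, these counts were 17 and 1. With a pseudocount of 5 CPM they were 19 and 1. Among controls, control 2 was above its group mean in 13 groups (0.12 ± 0.18) and control 1 in 4 (-0.11 ± 0.18). Taken by member, the median deviation of knockout 1 over the groups was above 0 for 35 of 40 members and below 0 for 3, against 32.2% of 14707 genes above 0. The median was 0.191 over the members and 0 over all genes. Genes at exactly 0 count as not above it, which lowers the share of all genes. That of knockout 2 was above 0 for 8 and below 0 for 31, against 53.2% of genes above 0, with a median of -0.127 over the members and 0.016 over all genes.

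In the 19 tested groups the difference between genotypes in the level of the list ran from -0.46 in the Ccl21a Mmrn1 cluster to 0.16 in the Ttn Lars2 cluster, was below 0 in 14 groups and above 0 in 5, and was smaller than the widest range within a genotype in each of the 19. The groups did not overlap in 2, the Ccl21a Mmrn1 and the Cd163l1 Il23r cluster. Both gaps were narrow, with the lowest control at 4.318 and 3.297 and the highest knockout at 4.3 and 3.268. The summed CPM of the members overlapped in both. It was 2761 to 3445 in controls against 2307 to 3343 in knockouts in the former, and 728.5 to 741.1 against 636.2 to 738.3 in the latter. Of the sum of squares of this level, genotype held 58.9% and 50.5% in these clusters. It held 43.0% in T-like, 41.6% in NK/ILC1-like, 39.5% in Ccl9 Gria3 and 33% in plasma-like cells. In the other tested groups it held 15.2% or less, with 4.68% in endothelial-like cells. Of the 6 groups with too few cells for a test, 5 were lower in knockouts and 1 higher, and in 3 the genotypes did not overlap. Mature dendritic-like cells were at 4.95, 4.77 and 4.65 in controls and 4.42, 3.73 and 4.37 in knockouts, a difference of -0.62 where the range within the knockouts was 0.69, on 17 to 45 knockout cells per mouse. Genotype held 62.3% of the sum of squares there. The summed CPM, most of it from Epsti1, did not overlap either, at 5822, 5635 and 5974 against 5070, 3954 and 4567. The Sntg1 Osr1 cluster was at 4.53, 4.64 and 4.88 against 4.41, 4.21 and 4.39, a difference of -0.35 where the widest range within a genotype was 0.352, and genotype held 67.0% of the sum of squares of this level. Its summed CPM overlapped, at 2556, 2349 and 2872 against 2310, 2892 and 2320. The Gm15997 Pde4c cluster was at 3.859 and 4.001 in controls 1 and 2 and at 2.98, 3.38 and 3.31 in knockouts, a difference of -0.70 that exceeded the widest range within a genotype (0.397), on 12 to 45 cells per mouse. These sums held 31 and 31 detected members in controls and 22, 25 and 23 in knockouts, and an undetected member lowers this level. The summed CPM of the members overlapped, at 1546 and 1841 against 1472, 1671 and 1833. The part of detection in the difference was not tested. In mature dendritic-like cells Isg15 was at 217, 157 and 148 CPM (not TMM-scaled) in controls and 124, 37.6 and 130.1 in knockouts, without overlap, whereas Ifih1 was at 794, 604 and 241 against 144, 113 and 480.2, which overlap. Cells of these groups were too few in some mice for the fit, so no test was made on them. In endothelial-like cells the single levels were 4.89, 5.16 and 5.44 in controls and 5.50, 5.10 and 5.16 in knockouts, with the lowest value in control 1 and the highest in knockout 1. Knockout 1 and control 3, with the highest levels, also had the largest shares of Adam23 Stab2 cells (21.6% and 20.6%). Genotype held a median of 12.4% of the sum of squares of the members in endothelial-like cells, against 15% for all genes. In T-like cells it held 27.1% against 12.6%, and in the Ccl9 Gria3 cluster 21.7% against 10.6%. Cage, sex, processing day and which mice shared a litter were not given in the sources used here, and what set knockout 1 apart was not tested.

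**Figure D5:**
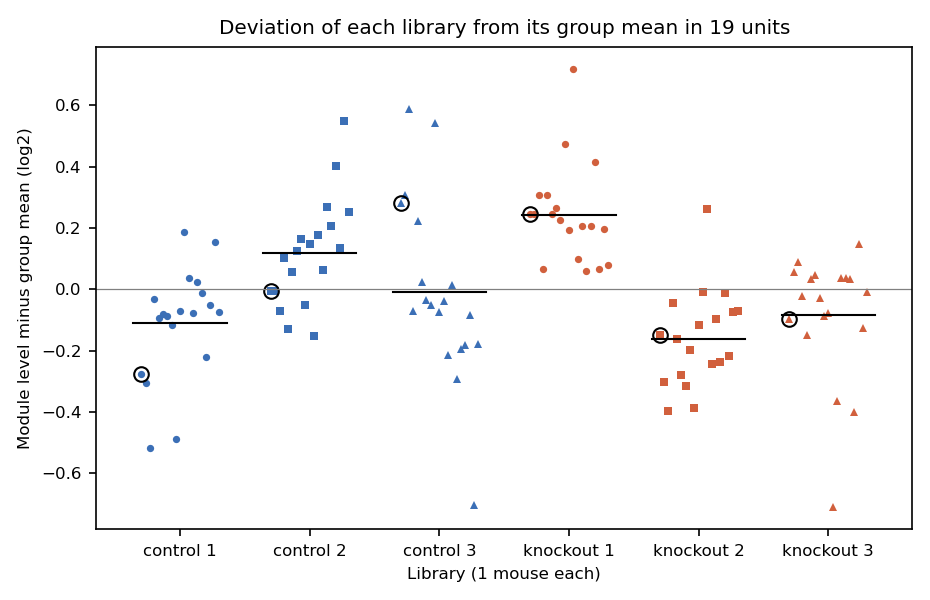
Deviation of each library's level of the list from the mean of its own genotype group (vertical axis, log2 scale) for the 6 libraries (horizontal axis). Each point is 1 of 19 cell groups, the bar is their mean and the ring is the endothelial-like class. Knockout 1 lies above 0 in all 19 groups and knockout 2 in 1.

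The rest of the pathway was read from lists of other genes in endothelial-like cells, none of which had a member past the edgeR threshold. Of 9 receptors and kinases, 8 were tested (5 higher and 3 lower by sign), with Ifnar1 at 37.8 ± 2.05 CPM in controls and 39.4 ± 2.91 in knockouts (SD, n = 3) and Il10rb differing by 0.38 (SE 0.14). Of 6 transcription factors, 2 were higher and 4 lower. Of 14 sensors and adaptors, 11 were tested, 4 higher and 7 lower. Mavs, the adaptor of the RNA sensors, was at 9.49, 9.75 and 9.30 CPM in controls and 14.5, 14.1 and 14.8 in knockouts (0.61, SE 0.18, edgeR adjusted p = 0.843), and Tbk1 differed by -0.27 (SE 0.12). All 6 feedback inhibitors were tested, with 2 higher and 4 lower. The 20 genes known mainly for induction by interferon gamma had 5 higher and 15 lower, with a median of -0.13 and Irgm1 at -0.47 (SE 0.20). Of 48 further interferon-stimulated genes outside the list, 41 were tested, 19 higher and 22 lower, with a median of -0.005.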

How the data were processed

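Single-cell RNA sequencing of dissociated liver from 6 mice gave the deposited 10x matrices of UMI counts per gene and cell, made by the authors with Cell Ranger 7.1.0, and Seurat 4.1.1 is also named, both per the submitters' processing notes. Barcodes needed 300 or more genes and no more than 20% mitochondrial UMIs, and cells above a Scrublet score of 0.2667 were removed as doublets (938). Cells were clustered with scanpy 1.11.5 and leidenalg 0.10.2 (3000 variable genes without 151 interferon genes, 40 components, 20 neighbours, resolution 2, 44 clusters), and clusters were named from marker lists. The limits for naming were set after the marker scores had been seen. Of the clusters, 12 with 10004 cells stayed unnamed.

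UMI counts were summed per mouse and cell group. Groups with at least 20 cells in every mouse were tested with edgeR 4.0.16 (TMM scaling, count filter, quasi-likelihood test, Benjamini-Hochberg adjusted over all genes, threshold 0.05, R 4.3.3). Differences of differences and contrasts between cell groups used the mouse as a block. Levels are mean log2(CPM + 1) over members, with a pseudocount of 1. DESeq2 1.42.0, no count filter, another pseudocount, doublets kept, other clusterings, a replicate block and leaving out each mouse were alternatives. The labels do not name an annotation release for the counts. Gene positions are those of GENCODE M21 (GRCm38), and promoter windows those of RefSeq. The fits were tested on simulated data.

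Genes with values were chosen by a rule: in endothelial-like cells every member past the threshold and the 8 of smallest unadjusted p, in other groups the 3 of smallest p, for levels the 3 with most UMIs in the tested groups per role, and Oasl1, Slfn8 and Ifi27l2a in every tested group. Further members were named after their values were seen. The members and lists were chosen with earlier results of these data known. The 3 mice per group are separate animals.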

Additional observations from a re-analysis of the deposited data

Results flagged for a closer look

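The difference between knockout and control in Rsad2 differed between cell types in a test of the difference itself. It was 3.05 higher on the log2 scale in endothelial-like than in NK/ILC1-like cells and 2.16 higher in endothelial-like than in neutrophil-like cells (edgeR adjusted p = 0.0259 and 0.00018). The first call was lost without control 2 (edgeR adjusted p = 0.562), control 3 (0.0788), knockout 2 (0.232) or knockout 3 (0.0652), and Rsad2 was low in NK/ILC1-like cells. The second held with each mouse left out in turn. Both comparisons were among 15 added after the data had been seen, and both use the same endothelial-like values of the same 6 mice.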

How the results depend on the processing

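No result on the members in endothelial-like cells gained a call under an alternative. The members called by edgeR, 0 in every group, became 1 in T-like, Cd8b1 Cd8a, mesothelial-like, cDC1-like and neutrophil-like cells and 3 in Ccl9 Gria3 cells with DESeq2. Without the count filter they became 1 in Cd8b1 Cd8a, mesothelial-like, Klra7 Klra9, neutrophil-like, plasma-like and Dach2 Slc7a8 cells, 2 in NK/ILC1-like, cDC1-like, Elane Camp and Ccl21a Mmrn1 cells and 3 in Ccl9 Gria3 cells. With doublets kept, 1 was called in cDC1-like cells. Leaving out each mouse gave 0 to 2 in NK/ILC1-like and 0 to 1 in Klra7 Klra9, neutrophil-like and Ccl9 Gria3 cells, with the calls made without control 1. The replicate block gave 1 call each in Cd8b1 Cd8a (Ifih1), Klra7 Klra9 (Ifih1) and cDC1-like cells (Oasl1), and turned Slfn8 in Ccl9 Gria3 cells to -0.0051. The numbers share no stated origin, and same-numbered mice deviated together above 0.1 in all 3 pairs in the Elane Camp cluster only (0.381, 0.229 and 0.102).

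The difference in level (main -0.2116 in T-like and 0.01276 in mesothelial-like cells) was -0.01634 and 0.1742 with the median over members, and 0.2124 in mesothelial-like cells with the log2 of the summed CPM. The Rsad2 difference between endothelial-like and NK/ILC1-like cells ranged from 2.68 to 3.80 when a mouse was left out.

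Small differences changed sign when a mouse was left out. Slfn8 ranged from -0.126 to 0.0981 in B-like, -0.0814 to 0.0372 in Cd8b1 Cd8a, -0.189 to 0.0539 in mesothelial-like, -0.38 to 0.112 in Cd163l1 Il23r, -0.441 to 0.0816 in Epha3 Gzmk, -0.229 to 0.00259 in cDC1-like and -0.28 to 0.223 in Ccl9 Gria3 cells. In mesothelial-like cells Slfn8 was also 0.000886 without the count filter and 0.00182 with interferon genes kept in the clustering. Oasl1 ranged from -0.138 to 0.191 in cholangiocyte-like, -0.547 to 0.0208 in endothelial-like and -0.414 to 0.234 in stellate/fibroblast-like cells, and Ifih1 from -0.752 to 0.0332 in the last. Ifi27l2a ranged from -0.495 to 0.655 in stellate/fibroblast-like, -0.382 to 0.601 in Ttn Lars2 and -0.351 to 0.458 in Dach2 Slc7a8 cells. Epsti1 ranged from -0.0673 to 0.472 in Ttn Lars2 and -0.537 to 0.102 in Dach2 Slc7a8, Parp14 from -0.08 to 0.833 in Ttn Lars2 and Bst2 from -1.09 to 0.156 in Elane Camp cells. The mean deviation of control 3 (-0.00722) became 0.0163 with a pseudocount of 5, 0.0439 with the log2 of the summed CPM and 0.0315 after thinning. The cause of these changes was not tested. Of 1031 alternative values of member differences, 975 kept their direction and their side of the threshold. Other clusterings gave values for the named classes only.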
